A study of Mus musculus with 8 samples.

Results

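The 10 genes described here carry glucose through glycolysis in mouse lung: the glucose transporter gene Slc2a1, the hexokinase genes Hk1 and Hk2, the phosphofructokinase gene Pfkp and its regulator Pfkfb3, Aldoa, Pgk1, Eno1, Pkm and the lactate dehydrogenase gene Ldha. They were taken by gene symbol from a table of 22244 genes, and all 10 were found and passed the filter on low counts, as did 14192 genes in all. Lung RNA came from adult male mice of the inbred strain C57BL/6J. In the naphthalene group 4 mice had been injected with naphthalene, and in the control group 4 mice had received no treatment. Naphthalene is an aromatic hydrocarbon that P450 enzymes of airway club cells turn into toxic products. Each library held total RNA of 1 right cranial lobe, so every lung cell type contributes to each value. The sources used here state neither the dose nor the vehicle nor the time between injection and sampling. Since the controls were untreated, an effect of the injection itself cannot be told apart from one of naphthalene.

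Glycolysis splits glucose into pyruvate in the cytosol and yields ATP without oxygen. Hexokinase and phosphofructokinase are its main points of control, and lactate dehydrogenase regenerates the NAD that the pathway needs by reducing pyruvate to lactate. Glucose also feeds the pentose phosphate pathway, glycogen, serine and hexosamine synthesis. Many glycolytic genes are known targets of the hypoxia-inducible factor HIF and of Myc, and lung tissue is known to release lactate.

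Total counts ranged from 10743842 to 16792306 per library. The lung marker Sftpc, a surfactant gene of alveolar type 2 cells, stood at 6502 ± 1081 CPM in naphthalene lungs and 6452 ± 778 CPM in control lungs (CPM, counts scaled to library size after TMM normalisation; SD, n = 4 each), and the club cell marker Scgb1a1 fell to 1325 ± 643 CPM in naphthalene lungs, against 4785 ± 1564 CPM in control lungs. The table has a gap: of 1150 protein-coding genes that RefSeq places on chromosome 1, 1138 were listed at 0 in all 8 libraries, or 99.0%, against 0.4% to 11.5% on the other autosomes. None of the 10 glycolysis genes lies on chromosome 1, but Pfkfb2, Mpc2, Rpe and Uap1 of the neighbouring pathways do and are listed at 0.

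Most of the 10 genes were higher after naphthalene. Slc2a1, Hk2, Aldoa, Pgk1, Eno1, Pkm and Ldha rose, while Hk1, Pfkp and Pfkfb3 did not pass the test. No gene was lower at an unadjusted p below 0.05 by edgeR's quasi-likelihood test, nor past the threshold by DESeq2 or voom. The 7 of 10 called higher (edgeR quasi-likelihood test, Benjamini-Hochberg adjusted p below 0.05 over all tested genes) stand beside 14.1% of all tested genes called higher and 14.6% called lower, or 28.7% called in either direction. The median log2 fold change, naphthalene over control, was 0.64 for the 10 genes and 0.01 for all tested genes. In 6 of the 10 genes every naphthalene library lay above every control library, which 13.9% of tested genes did. The 10 genes were chosen with earlier results of these data known, so these comparisons with all tested genes are descriptions only. The summed level of the 10 genes was 1305, 1462, 1626 and 1207 CPM in naphthalene libraries 1 to 4 and 882, 905, 856 and 924 CPM in control libraries 1 to 4, so these sums did not overlap. Pkm was the largest part of them, with means of 541 CPM in naphthalene lungs and 273 CPM in control lungs. In bulk lung, more cells of a type and more RNA per cell cannot be told apart.

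**Figure D1:**
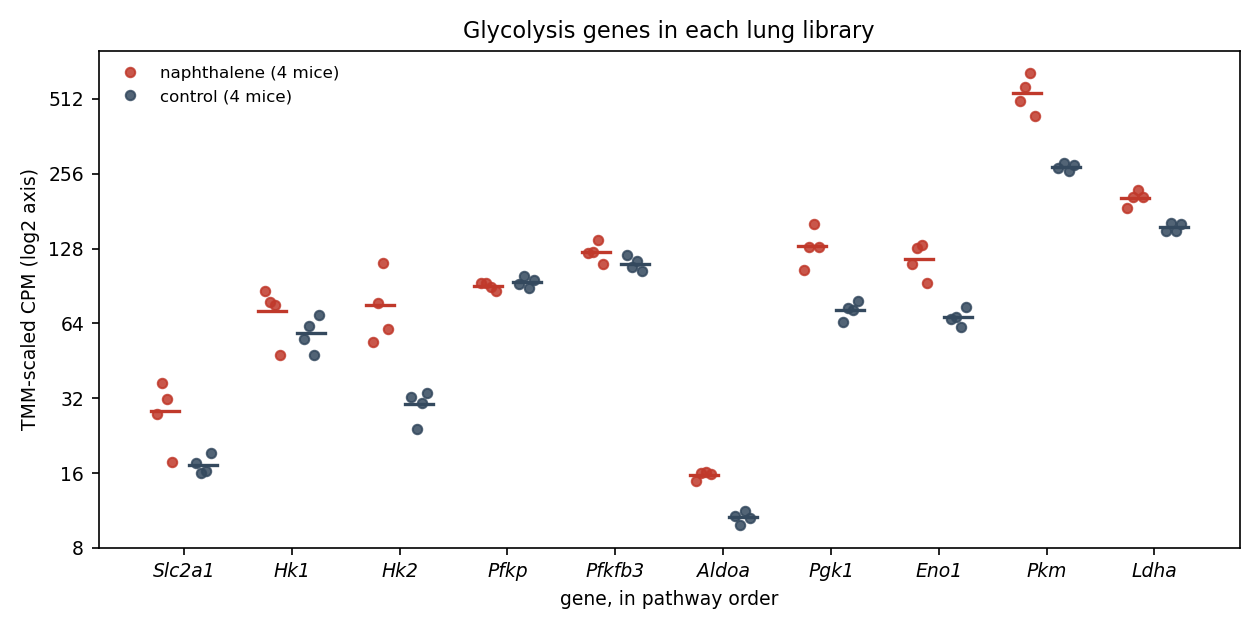
TMM-scaled CPM of the 10 genes in each library on a log2 axis, with 4 naphthalene libraries left of 4 control libraries for each gene and a line at each group mean. Hk2, Aldoa, Pgk1, Eno1, Pkm and Ldha show no overlap between groups, whereas Hk1, Pfkp, Pfkfb3 and Slc2a1 overlap.

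RefSeq promoters of 4 of these genes are shown because 3 of them, Hk2, Pgk1 and Ldha, rose together while Pfkp did not pass, and because GENCODE M21 exons cover 0 bases of the first 3 windows and 6 bases of the last. Each is the 250 bases before a RefSeq start on build GRCm38.p6, another build than the mm39 named for the counts. Capitals mark ACGTG or GCGTG on either strand, the 2 forms of the core of the hypoxia response element that HIF binds, and CACGTG, the E-box bound by Myc, which contains ACGTG. The windows are chr6:82774455-82774704 on the minus strand for Hk2, chrX:106186850-106187099 on the plus strand for Pgk1, chr7:46845554-46845803 on the plus strand for Ldha and chr13:6648772-6649021 on the minus strand for Pfkp.
Hk2: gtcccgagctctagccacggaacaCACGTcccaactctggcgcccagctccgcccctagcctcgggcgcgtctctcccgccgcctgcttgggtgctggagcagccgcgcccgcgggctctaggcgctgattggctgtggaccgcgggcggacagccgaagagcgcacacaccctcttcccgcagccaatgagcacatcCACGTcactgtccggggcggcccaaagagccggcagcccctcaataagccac
Pgk1: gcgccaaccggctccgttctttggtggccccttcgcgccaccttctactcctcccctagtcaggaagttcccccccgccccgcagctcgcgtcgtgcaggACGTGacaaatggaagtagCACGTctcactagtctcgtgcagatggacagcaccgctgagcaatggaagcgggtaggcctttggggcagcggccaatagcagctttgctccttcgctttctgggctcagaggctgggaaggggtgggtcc
Ldha: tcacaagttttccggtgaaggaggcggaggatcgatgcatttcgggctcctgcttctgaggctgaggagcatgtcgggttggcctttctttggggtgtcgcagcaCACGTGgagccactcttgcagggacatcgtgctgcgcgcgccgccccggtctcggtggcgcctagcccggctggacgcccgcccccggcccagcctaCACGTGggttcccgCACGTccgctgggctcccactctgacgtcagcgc
Pfkp: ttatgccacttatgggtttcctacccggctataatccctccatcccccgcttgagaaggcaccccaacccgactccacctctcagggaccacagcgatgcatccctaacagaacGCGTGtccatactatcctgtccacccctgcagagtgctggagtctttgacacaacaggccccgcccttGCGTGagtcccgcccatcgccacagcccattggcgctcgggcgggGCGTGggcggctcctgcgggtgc
The Hk2 and Pgk1 windows each held 2 copies of ACGTG and the Ldha window 5, of which 4 lie in 2 copies of CACGTG read on both strands. The Pfkp window held 3 copies of GCGTG, so the gene that did not pass carries a core match as well. Over all RefSeq starts of the 10 genes, 15 of 18 windows held ACGTG or GCGTG, as did 38.6% of 32851 promoter windows of the same length. The 18 windows are not separate, since some starts of a gene lie close together: windows 2 and 3 of Aldoa and of Eno1 overlap and share their matches. Counting only the most upstream window of each gene, 7 of 10 held a core. By motif, ACGTG was in 16.6% of all windows, GCGTG in 28.2% and CACGTG in 6.02%. Both core forms contain the letters CG. G and C made up 49.6% to 71.2% of the bases in the 18 windows, and the 32851 windows were not matched to these for base content. The part of base content in the counts of matches was not tested. A match says only that these letters are present.

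Glucose uptake came first. Slc2a1 encodes GLUT1, the widespread basal glucose transporter, and lies on chromosome 4. It measured 27.6, 36.9, 31.8 and 17.8 CPM in naphthalene libraries 1 to 4 and 17.6, 16.04, 16.3 and 19.3 CPM in control libraries 1 to 4. Naphthalene libraries 1 to 3 lay above all controls, and naphthalene 4 lay within the control range. The mean was 28.5 ± 8.12 CPM in naphthalene lungs and 17.3 ± 1.52 CPM in control lungs (SD, n = 4 each), a log2 fold change of 0.72 (SE 0.23, edgeR adjusted p = 0.0157). The call was lost without naphthalene 2 (log2 fold change 0.57, edgeR adjusted p = 0.0518) or control 2 (0.69, edgeR adjusted p = 0.0521). Slc2a3, the high-affinity transporter GLUT3, stood at 12.5 ± 2.84 CPM in naphthalene lungs and 12.2 ± 1.82 CPM in control lungs and did not pass (log2 fold change 0.05, SE 0.21). Per kilobase of exon, Slc2a1 made up 82.1 ± 3.10% of the summed Slc2a1 and Slc2a3 level in naphthalene lungs and 74.6 ± 3.17% in control lungs (exact 2-sided permutation p = 0.0286, the smallest that 70 assignments allow, and 0.0381 after Benjamini-Hochberg adjustment over 8 such shares). This share did not pass without naphthalene 2 or control 1, 2 or 3 (6.07 to 8.30 points, exact permutation adjusted p 0.0571 to 0.0762). Because the exact p has a smallest value, passing after adjustment over 8 shares also depends on how many other shares reach it.

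Hexokinase, which traps glucose in the cell as glucose 6-phosphate, showed the largest difference among the 10 genes. Hk2, the inducible isozyme, lies on chromosome 6 and measured 53.9, 77.5, 111.8 and 60.7 CPM in naphthalene libraries 1 to 4, against 32.4, 24.0, 30.7 and 33.7 CPM in control libraries 1 to 4. The lowest naphthalene library was above the highest control library. The mean was 75.9 ± 25.9 CPM in naphthalene lungs and 30.2 ± 4.30 CPM in control lungs, 2.51-fold higher (log2 fold change 1.33, SE 0.26, edgeR adjusted p = 0.000972). Naphthalene 3 was the highest, and without it the log2 fold change was 1.09.

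Hk1 on chromosome 10, the isozyme present in most tissues, measured 86.6, 78.1, 75.6 and 47.7 CPM in naphthalene libraries 1 to 4 and 55.5, 62.3, 47.9 and 69.0 CPM in control libraries 1 to 4. Naphthalene 4 was the lowest of all 8 libraries, while naphthalene 1 to 3 exceeded all controls. The log2 fold change of Hk1 was 0.30 (SE 0.22, edgeR adjusted p = 0.224). Without naphthalene 4 it was 0.45 and passed (edgeR adjusted p = 0.0198). Hk3, an isozyme of myeloid cells, did not pass at 6.08 ± 0.470 CPM in naphthalene lungs and 5.81 ± 1.64 CPM in control lungs.

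Set against each other per kilobase of exon, Hk2 took 43.7, 54.3, 64.01 and 58.3% of the summed Hk1, Hk2 and Hk3 level in naphthalene libraries 1 to 4 and 39.4, 32.2, 42.9 and 35.8% in control libraries 1 to 4. The groups did not overlap, although naphthalene 1 was close to control 3. The mean share was higher by 17.5 percentage points (exact 2-sided permutation p = 0.0286, adjusted p = 0.0381 over 8 shares). With raw counts in place of levels per kilobase the difference was 16.8 points with adjusted p = 0.0762 by the same exact permutation test. The share did not pass without any 1 of the 4 controls either (15.7 to 19.3 points, exact permutation adjusted p = 0.0762 each time). Hkdc1, which encodes a hexokinase-like protein, rose to 18.1 ± 2.44 CPM in naphthalene lungs, against 8.01 ± 1.66 CPM in control lungs.

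**Figure D2:**
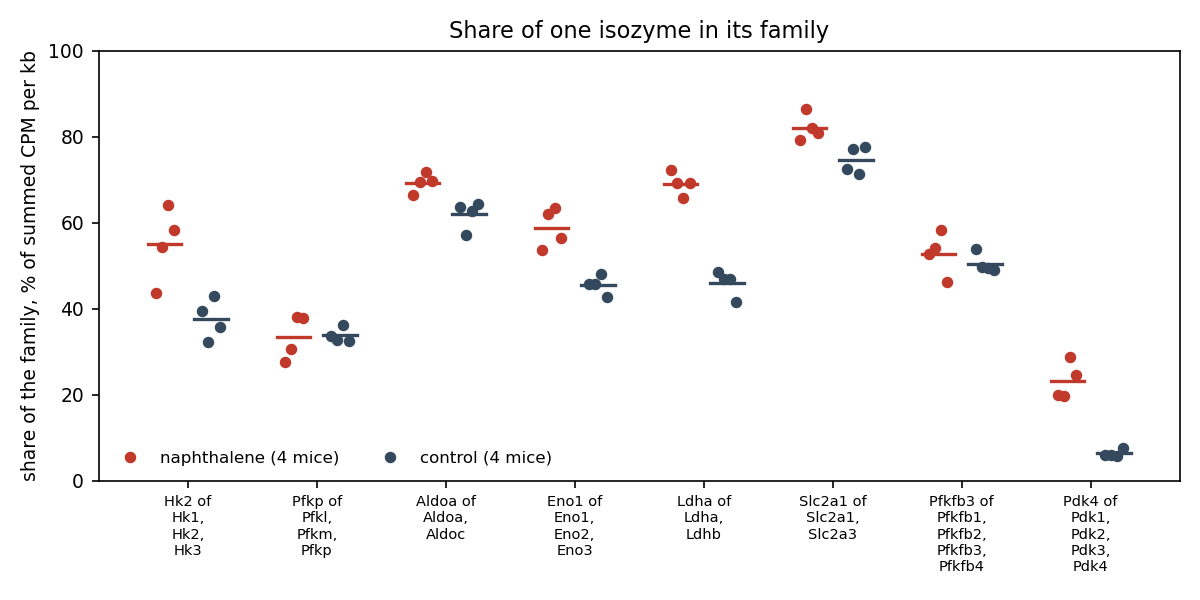
Share of one isozyme in the summed level per kilobase of its family, in percent, for each library, with naphthalene left of control and lines at the group means. Hk2, Aldoa, Eno1, Ldha, Slc2a1 and Pdk4 take larger shares in the naphthalene libraries with no overlap, while the Pfkp and Pfkfb3 shares overlap.

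The committed step, phosphorylation of fructose 6-phosphate, did not pass in any isozyme tested with all 8 libraries. Pfkp, the platelet-type phosphofructokinase gene on chromosome 13, measured 92.8, 93.2, 89.8 and 86.1 CPM in naphthalene libraries 1 to 4 and 92.2, 99.1, 89.1 and 95.7 CPM in control libraries 1 to 4. Its groups overlapped throughout, and its log2 fold change was -0.06 (SE 0.04, edgeR adjusted p = 0.627). The liver-type gene Pfkl stood at 54.0 ± 13.5 CPM in naphthalene lungs and 45.6 ± 5.19 CPM in control lungs. The muscle-type gene Pfkm stood at 19.4 ± 5.89 CPM in naphthalene lungs and 23.4 ± 2.87 CPM in control lungs (log2 fold change -0.27, SE 0.24, edgeR adjusted p = 0.336). Its log2 fold change ran from -0.44 to -0.12 with 1 library left out, and Pfkm passed as lower without control 3 and naphthalene 1 (-0.52, edgeR adjusted p = 0.0399). Pfkp held 33.5 ± 5.25% of the family's level per kilobase in naphthalene lungs and 33.8 ± 1.63% in control lungs (exact 2-sided permutation p = 0.886).

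Pfkfb3, on chromosome 2, encodes the kinase-dominated enzyme that makes fructose 2,6-bisphosphate, the activator of phosphofructokinase. It measured 122.6, 124.4, 138.6 and 111.4 CPM in naphthalene libraries 1 to 4 and 120.1, 107.9, 113.7 and 104.1 CPM in control libraries 1 to 4. Naphthalene 3 was highest and naphthalene 4 lay inside the control range. The log2 fold change was 0.16 (SE 0.08, edgeR adjusted p = 0.222). The related gene Pfkfb1 rose to 8.05 ± 1.78 CPM in naphthalene lungs, against 3.91 ± 0.679 CPM in control lungs (log2 fold change 1.03, SE 0.21, edgeR adjusted p = 0.00434). Pfkfb4 did not pass, and Pfkfb2 is listed at 0. With Pfkfb2 listed at 0 among the chromosome 1 genes, a share of the whole family cannot be given, and Pfkfb3 held 52.8 ± 4.97% of the summed Pfkfb1, Pfkfb3 and Pfkfb4 level per kilobase in naphthalene lungs and 50.5 ± 2.23% in control lungs (exact 2-sided permutation p = 0.40).

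**Figure D3:**
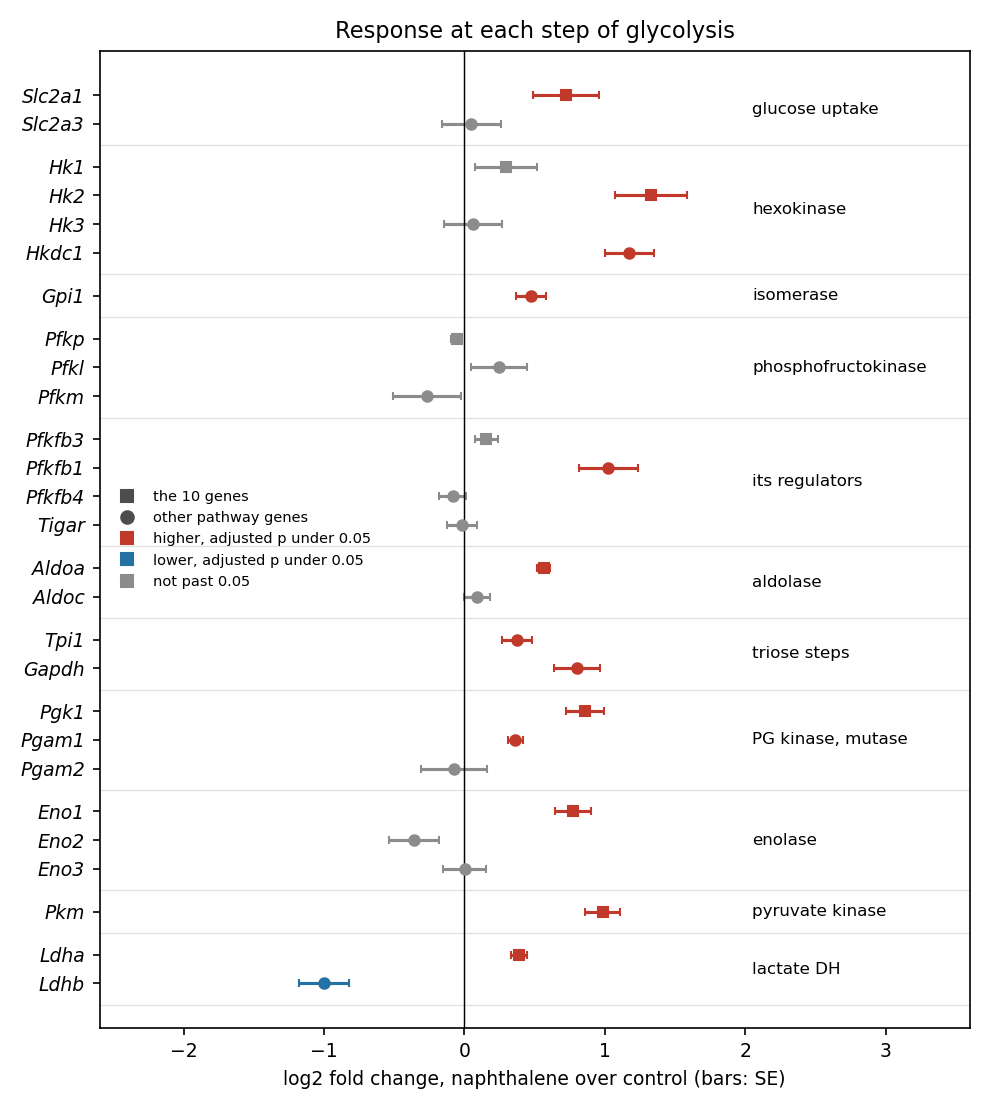
Log2 fold change of naphthalene over control with its SE for the genes of each step of glycolysis, squares for the 10 genes and circles for other pathway genes, coloured by call. Calls to the right are Slc2a1, Hk2, Hkdc1, Gpi1 and Pfkfb1 above aldolase, and a gene at each step from aldolase to lactate dehydrogenase. Phosphofructokinase has no call, and Ldhb lies to the left.

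Below phosphofructokinase every step had at least 1 gene called higher, as had glucose uptake, hexokinase and the isomerase Gpi1 above it. The triose phosphate isomerase step rests on Tpi1, whose call was lost in 5 of 8 fits with 1 library left out (edgeR adjusted p 0.051 to 0.0729). Aldoa, the main aldolase gene of most tissues on chromosome 7, measured 14.8, 15.98, 16.1 and 15.8 CPM in naphthalene libraries 1 to 4 and 10.8, 9.87, 11.3 and 10.5 CPM in control libraries 1 to 4. All naphthalene libraries were higher, and both groups were tight. The log2 fold change of Aldoa was 0.56 (SE 0.05, edgeR adjusted p = 0.00316), while Aldoc, the brain-type isozyme, did not pass at 6.10 ± 0.443 CPM in naphthalene lungs and 5.74 ± 0.611 CPM in control lungs. Aldoa held 69.4 ± 2.27% of the pair's level per kilobase in naphthalene lungs and 61.9 ± 3.31% in control lungs (exact 2-sided permutation p = 0.0286, adjusted p = 0.0381). The share did not pass without control 1, 2 or 3 (5.79 to 8.02 points, exact permutation adjusted p 0.0571 to 0.0762). GENCODE M21 holds 2 gene models named Aldoa, so its exon length, count, level per kilobase and share are uncertain. How reads of same-named models were counted is not given in the sources used here.

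Pgk1, on chromosome X, encodes phosphoglycerate kinase, which makes the first ATP of the pathway's second stage. It measured 105.4, 129.5, 161 and 129.6 CPM in naphthalene libraries 1 to 4, against 65.1, 74.1, 72.1 and 78.6 CPM in control libraries 1 to 4. The lowest naphthalene library, number 1, still exceeded the highest control. The mean was 131 ± 22.8 CPM in naphthalene lungs and 72.5 ± 5.61 CPM in control lungs, 1.81-fold higher (log2 fold change 0.86, SE 0.14, edgeR adjusted p = 0.000619).

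Eno1, on chromosome 4, encodes the enolase of most tissues and measured 110.9, 128.2, 132 and 93.2 CPM in naphthalene libraries 1 to 4, against 67.0, 68.0, 61.7 and 74.6 CPM in control libraries 1 to 4. Naphthalene 4 was lowest within its group and still above every control. The log2 fold change of Eno1 was 0.77 (SE 0.13, edgeR adjusted p = 0.000813). The neuronal and muscle isozyme genes Eno2 and Eno3 did not pass, with log2 fold changes of -0.36 (SE 0.18) and 0.00 (SE 0.15). Eno1 held 58.8 ± 4.59% of the enolase level per kilobase in naphthalene lungs and 45.5 ± 2.24% in control lungs, a difference of 13.3 points without overlap (exact 2-sided permutation p = 0.0286, adjusted p = 0.0381). Without control 1, 2 or 3 the difference was 13.3 to 14.2 points and did not pass after adjustment (exact permutation p still 0.0286, adjusted p = 0.0571).

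Pkm, on chromosome 9, encodes the muscle-type pyruvate kinase, whose M1 and M2 forms are spliced from 1 gene and are not separated by counts per gene. It measured 505, 571, 649 and 439 CPM in naphthalene libraries 1 to 4, against 271, 282, 263 and 277 CPM in control libraries 1 to 4. The control libraries lay close together, and the naphthalene libraries were all far above them. The mean was 541 ± 90.2 CPM in naphthalene lungs and 273 ± 8.39 CPM in control lungs, 1.98-fold higher (SE of the log2 fold change 0.12, edgeR adjusted p = 0.000217), the smallest p among the 10 genes.

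Counts may be shared with gene copies or overlapping gene models at some of these loci. Of all 75-base windows along the longest coding transcript in GENCODE M21, 67.5% for Pgk1 and 65.4% for Eno1 also occurred in a transcript of another gene. The share was 19.6% for Pkm, where the model Gm49759 covers 15.3% of exon bases on the same strand. It was 16.6% for Pfkp (shared with Pitrm1, on the opposite strand), 5.2% for Ldha, 2.0% for Hk1, 1.5% for Aldoa, 1.0% for Slc2a1 and 0.0% for Hk2 and Pfkfb3. Among other glycolytic enzyme genes it was 40.6% for Pgam1, 16.7% for Ldhb and 14.8% for Gpi1. Gene models of the same name, as for Aldoa, were not compared with each other. How reads with several matches were counted is not given in the sources used here, so the levels of Pgk1, Eno1 and Pgam1 are uncertain. Those of Pkm, Pfkp, Ldhb and Gpi1 are uncertain to a smaller extent. The part of such reads in the group differences was not tested.

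At the last step Ldha and Ldhb went in opposite directions. Ldha, on chromosome 7, encodes the M subunit of lactate dehydrogenase, which favours the reduction of pyruvate to lactate. It measured 186, 207, 219.8 and 206 CPM in naphthalene libraries 1 to 4, against 151, 162, 150.1 and 161 CPM in control libraries 1 to 4, with no overlap. The log2 fold change was 0.39 (SE 0.06, edgeR adjusted p = 0.00541). Ldhb encodes the H subunit, which favours the oxidation of lactate, and measured 33.7, 43.9, 54.5 and 43.5 CPM in naphthalene libraries 1 to 4, against 75.8, 87.0, 80.5 and 107.4 CPM in control libraries 1 to 4. Its log2 fold change was -1.001 (SE 0.18, edgeR adjusted p = 0.000791).

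Per kilobase of exon, Ldha made up 72.3, 69.1, 65.7 and 69.2% of the Ldha and Ldhb level in naphthalene libraries 1 to 4 and 48.6, 46.9, 46.9 and 41.6% in control libraries 1 to 4. The naphthalene mean was higher by 23.1 percentage points, the largest of the 8 share differences (exact 2-sided permutation p = 0.0286, adjusted p = 0.0381). It did not pass after adjustment without control 1, 2 or 3, where it was 23.4 to 23.9 points (exact permutation p still 0.0286, adjusted p = 0.0571). In those fits fewer of the other shares reached the smallest possible p. The percentages also depend on the length used. By the longest coding transcript, Ldha stood above Ldhb in control lungs too, at 86.0 against 67.2 CPM per kb. In naphthalene lungs these levels were 112.8 and 33.7 CPM per kb. Summed markers of club cells and of ciliated cells were lower in the same lungs, as given below for each list, and their part in the lower Ldhb was not tested.

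Levels differed widely between the 10 genes. Per kilobase of exon, Pkm led in naphthalene lungs at 108 ± 18.03 CPM per kb, followed by Ldha at 61.8 ± 4.25, Pgk1 at 58.5 ± 10.2, Eno1 at 21.6 ± 3.30, Pfkfb3 at 16.4 ± 1.48 and Hk2 at 12.7 ± 4.33 CPM per kb. Hk1, Slc2a1, Pfkp and Aldoa followed at 8.44, 8.13, 6.75 and 4.23 CPM per kb. In control lungs Pkm stood at 54.6 ± 1.68, Ldha at 47.1 ± 1.95, Pgk1 at 32.3 ± 2.50, Pfkfb3 at 14.7 ± 0.924 and Eno1 at 12.6 ± 0.988 CPM per kb. Pfkp, Hk1, Hk2, Slc2a1 and Aldoa followed in control lungs at 7.02, 6.87, 5.06, 4.93 and 2.86 CPM per kb. Neighbours whose means differed by less than the larger of their SDs were Ldha and Pgk1, Pfkfb3 and Hk2, Hk2 and Hk1, Hk1 and Slc2a1, and Slc2a1 and Pfkp in naphthalene lungs. In control lungs they were Pfkp and Hk1, and Hk2 and Slc2a1. The last place of Aldoa is uncertain, given its same-named gene models. The order depends in part on the length used. With the longest coding transcript in place of all exons, Pfkp stood above Hk2 in naphthalene lungs, at 21.8 against 13.8 CPM per kb. Other places changed as well. By that length Eno1 stood above Pfkfb3 in control lungs, at 33.5 against 23.2 CPM per kb. Aldoa was then not last but above Slc2a1, at 10.1 against 8.75 CPM per kb in naphthalene lungs. In control lungs Aldoa and Slc2a1 stood at 6.84 and 5.31 CPM per kb by that length.

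The naphthalene libraries did not rank alike for all 10 genes. Naphthalene 3 was the highest of its group for 7 genes, Hk2, Pfkfb3, Aldoa, Pgk1, Eno1, Pkm and Ldha. Naphthalene 4 was the lowest for 6 genes, Slc2a1, Hk1, Pfkp, Pfkfb3, Eno1 and Pkm, and naphthalene 1 for the other 4, Hk2, Aldoa, Pgk1 and Ldha. With group means removed, log2 CPM of Pgk1 and Ldha moved together over the 8 libraries (Pearson r = 0.925), as did Slc2a1 and Eno1 (r = 0.919) and Eno1 and Pkm (r = 0.91), whereas Pfkp and Aldoa moved apart (r = -0.763). Over all 45 pairs the median r was 0.48 and 38 were positive. These values share libraries and scaling and are descriptions. The 3 genes most like the mean profile of the 10 over 8 libraries were Vcp, which encodes an ATPase of protein quality control, Rassf1 and the translation initiation factor gene Eif3b (Pearson r = 0.996, 0.995 and 0.994). They were chosen from the 14192 tested genes after the 10 and unnamed gene models were left out.

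**Figure D4:**
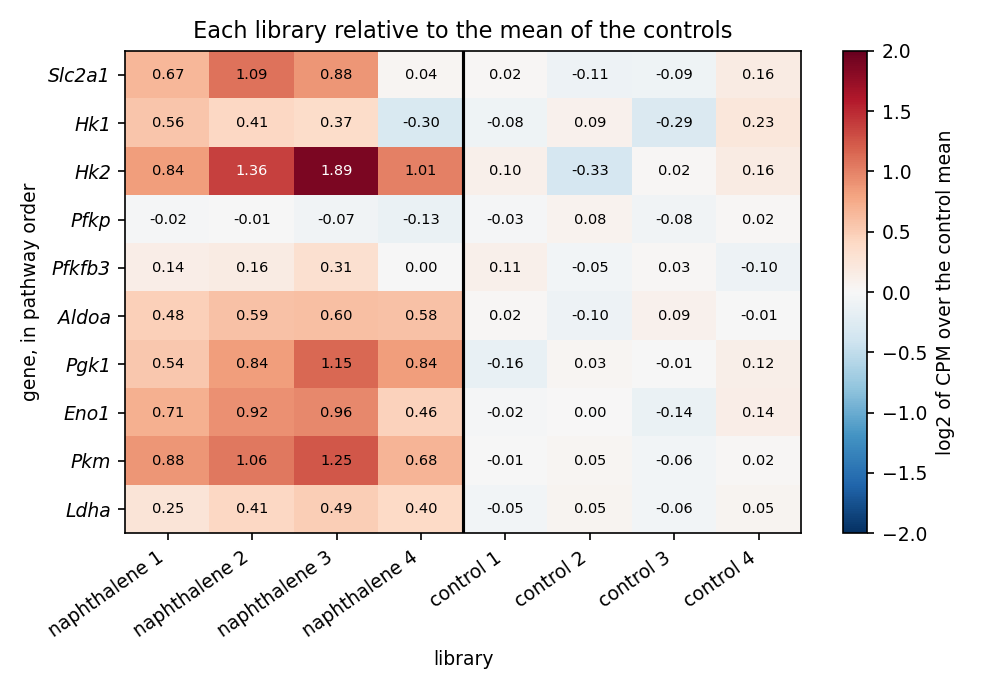
Log2 of CPM over the control mean for each of the 10 genes (rows) in 4 naphthalene libraries (left) and 4 control libraries (right). Slc2a1 and Hk1 reach 0.04 and -0.30 in naphthalene 4, whereas Pgk1 and Ldha are lowest in naphthalene 1 within that group.

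Marker genes of lung cell types were read in the same libraries, and their part in the levels of the 10 genes was not tested. Their counts stand beside 14.1% of all tested genes called higher and 14.6% called lower. All 6 club cell markers fell, with summed levels of 1212 to 3014 CPM in naphthalene lungs and 5064 to 10310 CPM in control lungs. Of 6 ciliated cell markers 5 fell (94.2 to 178 CPM in naphthalene lungs, 529 to 817 CPM in control lungs), and all 8 markers of T, NK and B cells fell (25.6 to 42.7 CPM in naphthalene lungs, 87.0 to 119.7 CPM in control lungs). Of 5 tested neutrophil markers 2 rose (206 to 496 CPM in naphthalene lungs, 61.8 to 390.3 CPM in control lungs, the highest control being number 3), and Cxcr2 is listed at 0. Of 6 monocyte and macrophage markers 2 fell (4099 to 6796 CPM in naphthalene lungs, 4929 to 6911 CPM in control lungs), and without the abundant Lyz2 the sums were 188 to 261 CPM in naphthalene lungs and 264 to 330.0 CPM in control lungs, with no overlap. Of 5 tested alveolar macrophage markers 1 rose (369 to 994 CPM in naphthalene lungs, 321 to 652 CPM in control lungs), with Marco listed at 0. Of 6 alveolar type 2 markers 2 rose (12910.0 to 16270.0 CPM in naphthalene lungs, 11860.0 to 14450.0 CPM in control lungs). Of 6 type 1 markers, led by Ager, 3 rose (5074 to 6185 CPM in naphthalene lungs, 3939 to 5215 CPM in control lungs), and of 6 mesothelial markers 1 rose and 1 fell (448 to 681 CPM in naphthalene lungs, 321 to 418 CPM in control lungs). The mesothelial sum was carried by Krt19, the marker that rose, and without it was 209 to 283 CPM in naphthalene lungs and 213 to 309 CPM in control lungs, which overlap. Of 6 endothelial markers 1 fell, with summed levels of 5141, 3586, 2541 and 2493 CPM in naphthalene libraries 1 to 4 and 3947 to 4668 CPM in control lungs. None of the 5 fibroblast, 5 smooth muscle, 2 skeletal muscle, 5 cardiac muscle and 5 erythroid markers tested passed edgeR's quasi-likelihood test, with Col3a1, Des and Tnnt2 listed at 0. At an unadjusted p below 0.05, 1 fibroblast marker was higher and 2 smooth muscle and 1 cardiac marker were lower. DESeq2 called 1 smooth muscle marker lower, voom called none, and voom with quality weights called 1 fibroblast marker higher, 1 lower and 4 smooth muscle markers lower. Their summed levels were 1303 to 1723 CPM in naphthalene lungs and 1341 to 1609 CPM in control lungs for fibroblasts, and 164 to 348 CPM in naphthalene lungs and 180.0 to 379.6 CPM in control lungs for smooth muscle. Cardiac markers summed to 198 to 327 CPM in naphthalene lungs and 133 to 426 CPM in control lungs. Skeletal muscle markers summed to 104.8 CPM in naphthalene 1, to 4.85 to 5.67 CPM in the other naphthalene lungs and to 4.39 to 10.03 CPM in control lungs. Erythroid markers reached 2965 CPM in naphthalene 3 and 1260.0 CPM in control 4. Without naphthalene 3 the log2 fold changes of the 10 genes ran from -0.05 for Pfkp to 1.09 for Hk2, and all 10 kept their side of the threshold.

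Other genes of glycolysis moved partly with the 10. Of 14 tested glycolytic enzyme genes outside the 10 that are reported here, 5 rose and 1 fell, with a median log2 fold change of 0.12. These are 35.7% higher beside 14.1% of all tested genes, and 7.14% lower beside 14.6%. Those that rose were Hkdc1, the isomerase gene Gpi1 (log2 fold change 0.47, SE 0.11, edgeR adjusted p = 0.00637), Gapdh (0.80, SE 0.16), the mutase gene Pgam1 (0.36, SE 0.055) and the triose phosphate isomerase gene Tpi1 (0.37, SE 0.10). The Tpi1 call was lost without naphthalene 2 or 3 or control 1, 2 or 3. Ldhb fell. For Gapdh, 80.3% of 75-base windows also occurred in transcripts of other genes, 121 of them, and its level of 25.1 ± 5.66 CPM in naphthalene lungs and 14.4 ± 0.990 CPM in control lungs is uncertain for that reason. Of 11 tested hexose transporter genes other than Slc2a1 none rose by edgeR's quasi-likelihood test (0 at an unadjusted p below 0.05 and 0 by DESeq2 or voom, but 1 by edgeR without naphthalene 1), and 1 fell, the sodium-glucose transporter gene Slc5a1, which did not pass without any 1 of the naphthalene libraries or without control 2, 3 or 4 (edgeR adjusted p 0.0506 to 0.122). Called hexose transporter genes were 9.09% of those tested, beside 28.7% of all tested genes. Of 3 tested regulators of fructose 2,6-bisphosphate only Pfkfb1 rose, or 33.3% beside 14.1% of all tested genes called higher.

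Genes of pathways that branch from glycolysis were also measured. Of 7 tested pentose phosphate pathway genes 6 rose, or 85.7% beside 14.1% of all tested genes called higher, with a median log2 fold change of 0.60. Taldo1, which encodes transaldolase, rose to 186 ± 48.0 CPM in naphthalene lungs, against 77.2 ± 5.29 CPM in control lungs. G6pdx, the gene of the pathway's first and rate-limiting enzyme, rose to 75.7 ± 20.2 CPM in naphthalene lungs, against 38.1 ± 2.36 CPM in control lungs. Pgls and the transketolase gene Tkt rose by log2 values of 0.60 (SE 0.10) and 0.59 (SE 0.16). Of 9 tested genes of serine and hexosamine synthesis 3 rose, or 33.3% beside 14.1% of all tested genes called higher. Called in either direction were 33.3%, beside 28.7% of all tested genes. Gfpt2, an entry enzyme of hexosamine synthesis, had a log2 fold change of 1.66 (SE 0.17) and the serine pathway gene Psat1 one of 1.37 (SE 0.16). Psph lost its call without any 1 of naphthalene 2 or 3 or control 1 to 4 (edgeR adjusted p 0.0557 to 0.13), with upper quartile scaling or no filter (edgeR adjusted p 0.06 and 0.064) and by voom (adjusted p = 0.0575), each of which left 2 higher. The count was 5 without naphthalene 1, also when control 3 was left out with it.

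Of 17 tested genes of pyruvate and lactate fate 4 rose and 1 fell. The 29.4% called lies near the 28.7% called among all tested genes, so the count does not set these genes apart, and single genes are given for their own values. Pdk4, a kinase that inactivates pyruvate dehydrogenase, measured 42.5, 44.0, 75.3 and 63.8 CPM in naphthalene libraries 1 to 4, against 11.4, 10.4, 11.3 and 13.7 CPM in control libraries 1 to 4, with no overlap. It held 23.3 ± 4.31% of the summed level per kilobase of Pdk1 to Pdk4 in naphthalene lungs and 6.36 ± 0.877% in control lungs (exact 2-sided permutation p = 0.0286, adjusted p = 0.0381). The Pdk4 share did not pass after adjustment without control 1, 2 or 3 (16.7 to 16.8 points, exact permutation p still 0.0286, adjusted p = 0.0571). Pdk1, Pdk2 and Pdk3 did not pass. Pdk2 passed as lower without naphthalene 1 (log2 fold change -0.49, edgeR adjusted p = 0.0373), with the replicate block (-0.37, edgeR adjusted p = 0.0426) and without control 3 and naphthalene 1 (-0.57, edgeR adjusted p = 0.0199). Pdk3 passed as higher in the last of these (0.31, edgeR adjusted p = 0.0226) and with quality weights in voom (0.20, adjusted p = 0.0451), where Pdk1 passed as lower (-0.21, adjusted p = 0.0255). The pyruvate dehydrogenase subunit genes Dlat, Pdhx and Pdha1 rose by log2 values of 0.37 (SE 0.08), 0.44 (SE 0.11) and 0.32 (SE 0.075). Pdhx lost its call without control 2 or 4 (edgeR adjusted p 0.0553 and 0.0602) and Pdha1 without naphthalene 2 or 3 or control 1 or 2 (edgeR adjusted p 0.0516 to 0.0688). The phosphatase gene Pdp2, which fell, lost its call without naphthalene 3 or control 3 or 4 (edgeR adjusted p 0.0509 to 0.062). The number higher was 2 without control 2, 7 without control 3 and 8 without naphthalene 1, and the number lower was 3 without naphthalene 1, 2 without naphthalene 4 and 0 without naphthalene 3 or control 3 or 4.

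Genes of the HIF pathway, together with known hypoxia targets, and transcription factor genes tied to glycolysis were read next. Of 22 tested genes of the first list 7 rose, or 31.8% beside 14.1% of all tested genes, and 2 fell, or 9.09% beside 14.6%, with a median log2 fold change of 0.10. Hif1a, an oxygen-regulated subunit of HIF, rose to 212 ± 44.3 CPM in naphthalene lungs, against 140.3 ± 17.9 CPM in control lungs (log2 fold change 0.59, SE 0.18, edgeR adjusted p = 0.0123). Its groups overlapped, with 162.2 CPM in naphthalene 1 and 166.2 CPM in control 3. Hif3a (log2 fold change 2.26, SE 0.22), the stress gene Ddit4 (1.44, SE 0.14), the mitophagy gene Bnip3 (0.61, SE 0.13) and the collagen hydroxylase gene P4ha2 (0.56, SE 0.12) also rose. Epas1, another HIF gene of the list, stood higher than Hif1a and did not pass. It measured 2182 ± 898 CPM in naphthalene lungs and 2460 ± 192 CPM in control lungs (log2 fold change -0.17, SE 0.29, edgeR adjusted p = 0.61). The hypoxia target Vegfa did not pass at 739 ± 67.1 CPM in naphthalene lungs and 892 ± 58.6 CPM in control lungs, although its groups did not overlap. It passed as lower without naphthalene 1 (log2 fold change -0.32, edgeR adjusted p = 0.0322) and by DESeq2 (adjusted p = 0.0187). The same held with upper quartile scaling (edgeR adjusted p = 0.0463) and without control 3 and naphthalene 1 (edgeR adjusted p = 0.0492). Voom with quality weights also called it lower (adjusted p = 0.0285). The carbonic anhydrase gene Car9 fell to 1.88 ± 0.271 CPM in naphthalene lungs, against 3.14 ± 0.542 CPM in control lungs, and lost its call without naphthalene 2 or 3 or control 2 or 4 (edgeR adjusted p 0.0626 to 0.0854). Hif1an, which encodes an inhibitor of HIF, fell with a log2 fold change of -0.35 (SE 0.09) and lost its call without naphthalene 2 or 3 or control 1 or 2 (edgeR adjusted p 0.0559 to 0.073). The number lower was therefore 0 without naphthalene 2 or 3 or control 2, 1 without control 1 or 4 and 4 without naphthalene 1. Of 9 transcription factor genes 2 rose, or 22.2% beside 14.1% of all tested genes called higher. Called in either direction were 22.2%, beside 28.7% of all tested genes, so the count does not set these genes apart. Myc rose to 16.2 ± 1.93 CPM in naphthalene lungs, against 4.30 ± 1.03 CPM in control lungs. Klf4 also rose and lost its call without naphthalene 2 or control 1 or 4 (edgeR adjusted p 0.0501 to 0.0564), leaving 1. Without naphthalene 1 or 4, 1 factor gene was lower.

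**Figure D5:**
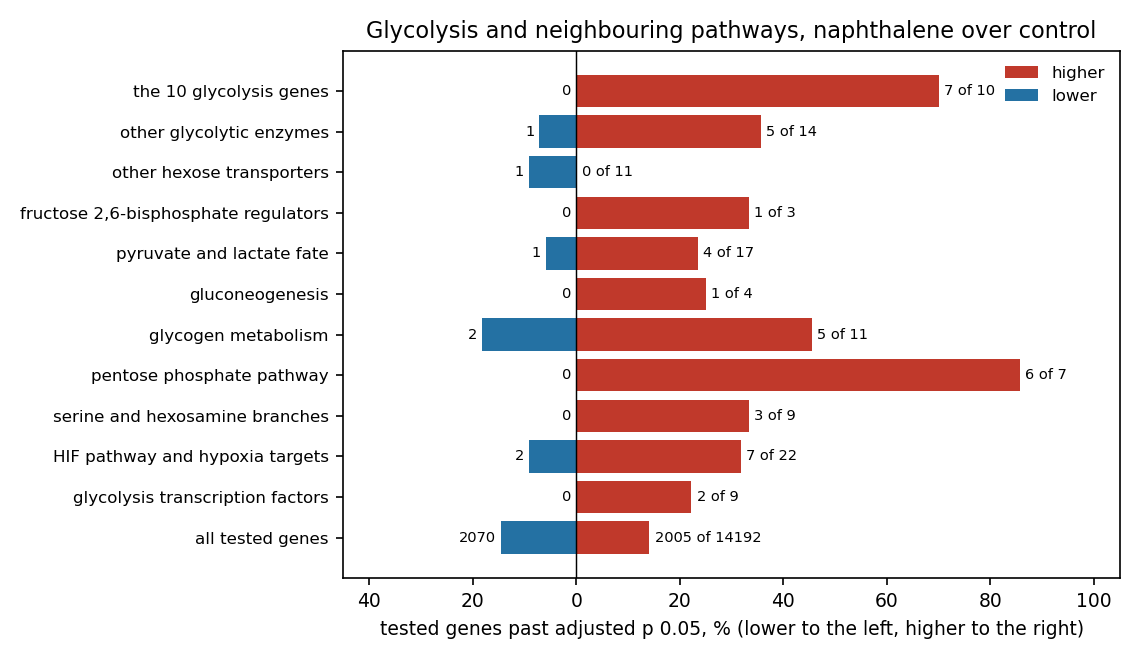
Percent of tested genes past an adjusted p of 0.05 in each list, higher to the right and lower to the left of 0, with the counts beside the bars and all tested genes at the bottom. The 10 glycolysis genes have 7 of 10 higher and the pentose phosphate pathway 6 of 7, beside 2005 of 14192 for all tested genes.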

How the data were processed

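The deposited table held unnormalised read counts, as whole numbers for each gene symbol and library. Per the submitters' processing notes, Trim Galore 0.6.7, HISAT2 2.2.1, featureCounts 2.0.6 and edgeR 4.2.1 were used, with mm39 as the build; which tool did which step is not stated. The sources used here give no annotation, strand setting or treatment of reads with several matches. Columns were assigned to mice by library name. Each library came from a separate mouse.

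In R 4.3.3, edgeR 4.0.16 was run with TMM scaling, filterByExpr (minimum count 10) and the quasi-likelihood test on group alone, and p-values were adjusted by Benjamini-Hochberg over all tested genes (threshold 0.05). SEs refer to differences between group means of log2 CPM (prior count 2). Isozyme shares used CPM per kilobase of the union of GENCODE M21 exons and an exact 2-sided permutation test over 8 libraries. The procedures were tested on simulated data. Alternatives included DESeq2 1.42.0 and voom of limma 3.58.1. Pairs of libraries within a group had chi-square values of 5.75 to 51.2 per degree of freedom, so each library was counted once.

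The genes and lists were chosen with earlier results of these data known. A gene of the list of other glycolytic enzymes is not reported here and was left out of that list's counts, though not of the test over all genes. The rule named the 10 genes, up to 4 genes per pathway list past the threshold with the smallest p (2 where none passed), the isozyme families, the 3 genes of most similar profile, and the most abundant marker of each cell type (Sftpc, Ager, Scgb1a1, Dnah5, Ptprb, Pdgfra, Myh11, Acta1, Myh6, Lyz2, Chil3, S100a9, Ms4a1, Hbb-bs and Krt19), most of which are given here only within the sums. Tpi1, Pgam1, Hif1a, Epas1, Vegfa, Car9, Hif1an, Pdp2 and Pygl were named after their values were seen. Marker sums without the most abundant marker were added after seeing the data.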

Additional observations from a re-analysis of the deposited data

Results flagged for a closer look

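Each group of 4 libraries was examined for 1 library far from the other 3, by the ratio of its gap to the group's range against Dixon's 95% critical value, over the 10 genes and 8 shares in both groups. Of 36 such groups 2 passed, and chance flags about 1 in 20. The Pfkfb3 share of summed Pfkfb1, Pfkfb3 and Pfkfb4 was 53.76% in control 1, against 48.9 to 49.6% in the other controls. The Pdk4 share of the Pdk family was 7.67% in control 4, against 5.8 to 6.04% in the other controls, still below the lowest naphthalene library at 19.8%.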

How the results depend on the processing

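Over 18 alternatives (scaling by RLE or by the upper quartile, dropping the filter, a filter at a CPM of 1 in 4 libraries, the replicate block, DESeq2, voom without and with quality weights, 8 libraries left out in turn, control 3 and naphthalene 1 left out together, and removal of mitochondrial and haemoglobin genes) the 10 glycolysis genes kept their direction. The count called higher was 6 to 8 of 10, and 176 of 180 gene results kept their side of the threshold. The exceptions are Slc2a1 (0.57 to 0.89 with 1 library left out) and Hk1 (0.20 to 0.45 with 1 library left out, and 0.33 with quality weights, where it passed). Genes past the threshold numbered 4075, 6503 with quality weights and 2929 to 5058 with 1 library left out. With the replicate block they numbered 4363, and 7 of the 10 glycolysis genes passed. Same-numbered libraries had correlations of their deviations of 0.29, 0.03, 0.18 and -0.09, and 2 of 4 correlated best with their own number, so the numbers were not taken as pairs. The block raised the number of pyruvate genes higher to 7 and lower to 3, and Slc5a1 lost its call under it (edgeR adjusted p = 0.0626). Voom with quality weights called 8 pyruvate genes higher and 4 lower, and DESeq2 6 and 2. Without control 3 and naphthalene 1, 2 of the other glycolytic enzyme genes were lower.

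With 1 library left out, share differences in percentage points were 14.5 to 21.3 for Hk2, 5.79 to 8.404 for Aldoa, 11.8 to 15.04 for Eno1, 21.6 to 24.2 for Ldha, 6.07 to 8.49 for Slc2a1 and 15.1 to 18.1 for Pdk4, with adjusted p of 0.0381 to 0.0762. Without control 3 and naphthalene 1 they were 23.1, 8.66, 15.9, 22.3, 7.37 and 17.8 in that order, where the smallest possible p of 0.1 cannot pass. With raw counts the Hk2 difference was 16.8 points. The Pfkp share difference of -0.28 reversed to 1.71 without naphthalene 1, 0.67 without naphthalene 2, 0.49 without control 3 and 2.48 without both, never past the threshold (range with 1 library left out -1.77 to 1.71). A length from the longest coding transcript, added after seeing the data, left all 8 shares on their side of the threshold. The percentages themselves depend on the length used. In control lungs Ldha and Ldhb stood at 47.1 and 55.8 CPM per kb of exon, but at 86.0 and 67.2 CPM per kb of that transcript. Pfkp in control lungs stood at 7.02 CPM per kb of exon and 22.7 CPM per kb of transcript. For Eno1 these values were 12.6 and 33.5 CPM per kb. The adjusted p of a share at the smallest exact p depends on how many of the 8 shares reach it. A share can therefore lose its call without a smaller difference.

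Genes near 0 changed sign without passing. Eno3 was -0.028 with upper quartile scaling, -0.01 with no filter, -0.031 with quality weights, -0.18 without control 3 and naphthalene 1, and -0.098 to 0.117 with 1 library left out, being negative without naphthalene 1 or control 1, 2 or 3. Slc2a3 was negative without naphthalene 1 or 3 or control 2 (range with 1 library left out -0.052 to 0.183) and Hk3 without control 2 or 3 (range -0.06 to 0.223). The cause of these changes was not tested.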

Other observations

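Genes of glycogen metabolism were also measured. Of 11 tested genes 5 rose, or 45.5% beside 14.1% of all tested genes, and 2 fell, or 18.2% beside 14.6%. Gbe1, the glycogen branching enzyme gene, rose to 65.5 ± 13.8 CPM in naphthalene lungs, against 39.7 ± 1.20 CPM in control lungs (edgeR adjusted p = 0.0033). Pgm1, which links glycogen to glycolysis, rose to 58.7 ± 2.96 CPM in naphthalene lungs, against 44.1 ± 1.70 CPM in control lungs. Gys1 rose but did not pass without naphthalene 3 or control 2 (edgeR adjusted p 0.0528 and 0.0627). The phosphorylase genes Pygb and Pygl fell with log2 fold changes of -0.44 (SE 0.13) and -0.40 (SE 0.15). Pygb did not pass without naphthalene 3 or control 4, and Pygl did not pass without naphthalene 1, 2 or 3 or control 2, 3 or 4 (edgeR adjusted p 0.0522 to 0.118 for both). The number higher was 2 without naphthalene 3 or control 2 and 3 without naphthalene 2 or control 1 or 4. The number lower was 0 without naphthalene 3 or control 4 and 1 without naphthalene 1 or 2 or control 2 or 3.

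Of 4 tested gluconeogenesis genes 1 was called, as higher, beside 14.1% of all tested genes called higher and 28.7% called in either direction. The count does not set these genes apart, and the called gene, Fbp2, is given for its own values. Fbp2 encodes a muscle-type fructose bisphosphatase. It rose to 2.61 ± 1.19 CPM in naphthalene lungs, against 0.545 ± 0.518 CPM in control lungs (edgeR adjusted p = 0.00971). These levels are low, and the groups came close, with 1.37 CPM in naphthalene 4 and 1.31 CPM in control 2.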
